A study of Mus musculus with 18 samples.

Results

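Subcutaneous white adipose tissue (sWAT) and mesenteric white adipose tissue (mWAT) of mice kept at 28°C were compared on 6 of the 18 arrays of the series, 3 for each depot, taken by their titles. The mice were females of the strain Sv129, 10 wk old, with no transgene or drug named, housed for 10 days at 28°C or, in the rest of the series, at 6°C. sWAT was the inguinal pad and mWAT the fat along the gut. The third depot of the series, interscapular brown adipose tissue (BAT), entered the fit but none of the comparisons. RNA of whole pads was extracted with Trizol, amplified with the NuGEN Ovation V2 system, labelled with biotin and hybridized to Affymetrix mouse arrays. A pad holds adipocytes together with vessels, nerves, immune cells and whatever lies in the dissected tissue, so a lower signal from fewer cells of a type and from less RNA per cell cannot be told apart.

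White adipose tissue stores triacylglycerol, and its depots differ in embryonic origin and in the tissues they border. The inguinal pad of a female mouse surrounds a mammary gland, a ductal epithelium that makes milk protein in lactation. The mesentery is a fold of peritoneum covered by mesothelium, and it carries arteries, veins, lymphatic vessels, lymph nodes and the nerves of the gut. Segmental position along the body is marked by the Hox genes, whose order in each cluster follows their expression from head to tail.

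The tissue and temperature listed among each array's characteristics contradict its title. In the median probe set, grouping by title explained 65.3% of the variance and grouping by those characteristics 41.5%. Array medians of the 6 arrays lay between 142 and 146 in intensity, or 7.14 and 7.18 in log2. Both depots carried adipocyte markers at high level: the mean log2 intensity of 23 genes of adipocyte identity and lipid storage was 12.75, 12.73 and 13.06 on sWAT arrays A, B and C and 12.45, 12.50 and 12.56 on mWAT arrays A, B and C. Values are given in this order throughout. mWAT array C stood apart in lymphocyte genes, mWAT array A in pancreatic genes and sWAT arrays A and B in skeletal muscle genes, and those values are given with the results they touch. Across all probe sets mWAT array C correlated at 0.969 and 0.963 with mWAT arrays A and B, and at 0.991 with mWAT array C of the 6°C group. For comparison, mWAT array B correlated at 0.990 with mWAT array A of the 6°C group. The methods describe separate groups of mice at 28 and 6°C, and the reason for the closeness of the arrays C was not tested.

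Differences are given as sWAT minus mWAT on the log2 scale with their SE (n = 3 arrays a depot), and a probe set was called when its Benjamini-Hochberg adjusted p in limma was under 0.01. The methods speak of biological replicates, while the labels do not name the mice, so the p-values measure the spread between arrays. For each probe set that spread, and with it the SE, was estimated over all groups of the fit, BAT and 6°C included. It is thus not the spread of the compared arrays alone. Of 45037 probe sets 2631 (5.84%) were called, 966 (2.14%) higher in sWAT and 1665 (3.7%) higher in mWAT. The called probe sets named 630 genes in sWAT and 1015 in mWAT. Among them 363 in sWAT and 767 in mWAT differed at least 4-fold, and 92 and 132 at least 16-fold. The 3 arrays of a depot did not overlap with those of the other in any of the 2631 called probe sets, nor in 25.1% of all probe sets. At an unadjusted p under 0.05, with 1 probe set a gene, 12.9% of genes were higher in sWAT and 12.1% in mWAT, which is the share to read against the counts at an unadjusted p given for lists without calls. The count in sWAT was 625 without mWAT array A and 641 without sWAT array C, and that in mWAT was 1095 without mWAT array C. With 1 probe set a gene, the one of highest mean, 7.87% of 18193 genes were called, 3.05% higher in sWAT and 4.82% in mWAT, with a median difference of 0.047. Counts of called list members are to be read against these shares of all genes. Of the 883 genes on the 46 lists described here, 95 were higher in sWAT and 113 in mWAT.

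**Figure D1:**
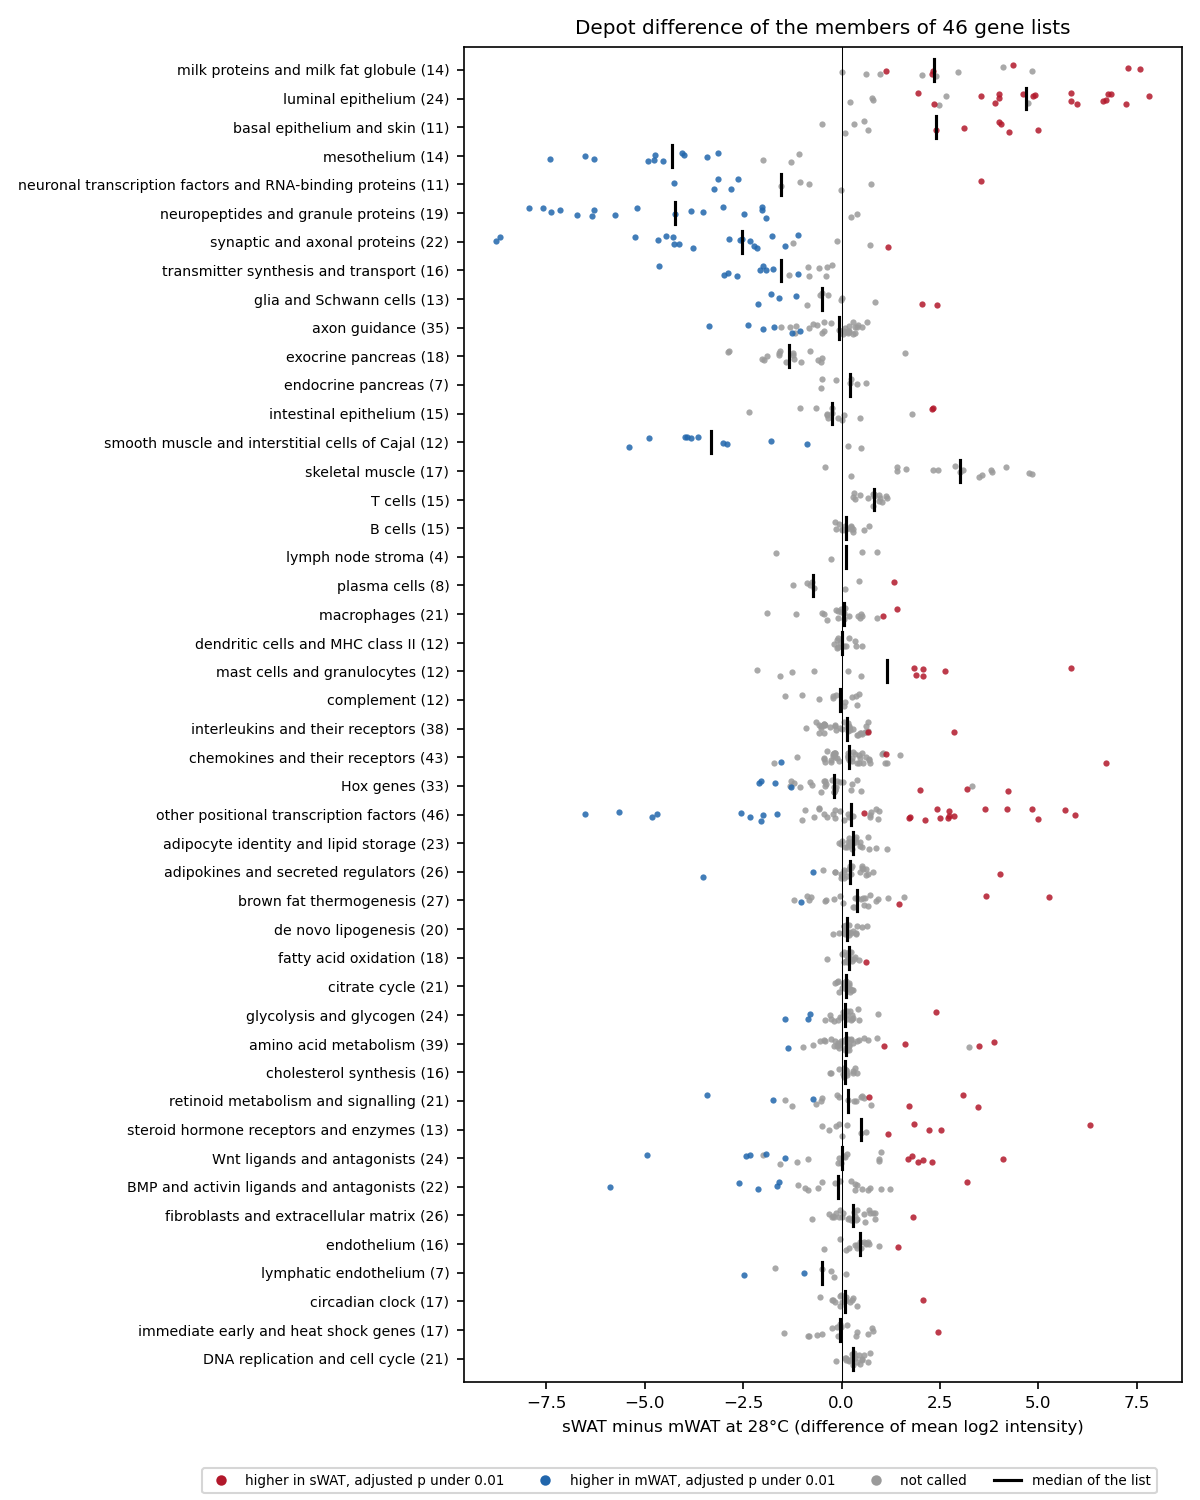
Difference of mean log2 intensity, sWAT minus mWAT at 28°C, for every measured member of 46 gene lists, with the number of measured genes in brackets. Each point is 1 gene, red where called higher in sWAT, blue where called higher in mWAT and grey where not called, and the black bar is the median of the list, which reached 4.68 in luminal epithelium and -4.30 in mesothelium.

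Epithelial genes of the mammary gland led the differences toward sWAT. Of 24 measured genes of luminal epithelium 18 were higher in sWAT and none in mWAT, with a median difference of 4.68. Of 11 genes of basal epithelium and skin 6 were higher in sWAT, with a median of 2.39, and of 14 genes of milk proteins and the milk fat globule 6 were, with a median of 2.36. These shares stand beside 3.05% over all genes. The mean of the luminal list was 10.93, 11.17 and 11.21 on the sWAT arrays and 6.48, 6.65 and 6.99 on the mWAT arrays.

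Foxa1, a pioneer factor of luminal cells that works with the estrogen receptor, gave 11.65, 11.13 and 11.70 in sWAT and 3.09, 4.14 and 3.79 in mWAT. The difference of 7.82 ± 0.54 had an adjusted p of 2.8e-07 in limma, and the arrays of the depots lay far apart. Elf5, the factor of the alveolar lineage, gave 9.80, 11.67 and 10.55 in sWAT against 3.53, 4.20 and 4.33 in mWAT (6.65 ± 0.48). Epcam, an adhesion molecule of epithelia, was higher by 4.91 ± 0.41, and Cldn4, a tight junction protein, by 4.62 ± 0.20. The basal keratins Krt14 and Krt5 were higher by 4.26 ± 0.42 and 4.06 ± 0.24, and Trp63, the basal transcription factor, by 4.01 ± 0.33. Krt8 and Krt18, keratins of simple epithelia that mesothelium also makes, were not called. Krt8 gave 12.59, 13.03 and 12.22 in sWAT and 9.99, 9.55 and 10.86 in mWAT, with no overlap and an adjusted p of 0.0306. Of the genes of cornified skin, Lor differed by 0.57 ± 0.23 and Krt1 by 0.08 ± 0.24, and neither was called.

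The milk genes varied more among the sWAT arrays than the epithelial markers did. Csn3, kappa casein, was high on every sWAT array, at 13.22, 13.37 and 13.40, against 3.88, 5.57 and 7.79 in mWAT (7.58 ± 1.29, adjusted p = 0.0011 in limma). Btn1a1, butyrophilin of the milk fat globule, gave 10.24, 11.35 and 11.58 against 3.43, 3.17 and 4.73. Slc5a5, the iodide transporter that also loads milk, gave 12.05, 8.38 and 11.93 against 6.43, 6.02 and 6.83. Csn1s1, an alpha casein, spanned nearly the whole scale within sWAT, at 3.99, 13.21 and 9.59, against 2.92, 2.53 and 6.81 in mWAT. Its arrays overlapped and its difference of 4.84 ± 1.79 was not called (adjusted p = 0.1160), while it was without sWAT array A (adjusted p = 0.0047). Csn1s2a followed the same order, with 6.10, 13.80 and 9.61 in sWAT. Wap, the whey acidic protein, differed by 0.01 ± 0.31. Glycam1, a mucin of milk that lymph node venules also make, gave 13.50, 13.24 and 12.80 in sWAT and 13.40, 13.46 and 6.56 in mWAT, with the low value on the mWAT array that was low in lymphocyte genes.

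Within sWAT, array B differed from arrays A and C in genes picked here after their values were seen. It was the lowest for Slc5a5, for Ltf (lactoferrin, at 11.55, 9.15 and 12.06), for Pgr (the progesterone receptor, at 11.58, 9.99 and 11.60) and for Greb1 (an estrogen receptor target, at 8.26, 6.98 and 8.16). It was the highest for Csn1s1, Csn1s2a and Elf5, and for Tnfsf11, the RANK ligand that luminal cells also release, at 8.38, 11.92 and 6.90. These are single arrays, and no test applies to them.

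Casein promoters are read by the prolactin-activated factor STAT5, whose binding sequence is TTCNNNGAA, the same letters on both strands. Upstream windows of 250 bases (RefSeq, GRCm38.p6) were found for 10 of the 14 milk genes, and 3 of them held the motif, against 8.13% of 27025 genes with a window. They are shown because Csn1s1 and Csn2 spread so widely over the sWAT arrays (Csn2 gave 6.21, 13.65 and 10.13), and the capitals mark the motif. The match is of letters only. It also occurred in 2 of 15 neuropeptide and granule genes, 2 of 17 luminal genes and 1 of 10 mesothelial genes with a window, and in 0 of 8 smooth muscle genes. None of the 3 milk genes with the motif was called. They lie at chr5:87666078-87666146 on the plus strand, chr5:87699480-87699548 on the minus strand and chr15:103565188-103565256 on the minus strand.
Csn1s1: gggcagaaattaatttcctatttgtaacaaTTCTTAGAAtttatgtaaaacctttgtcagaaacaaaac
Csn2: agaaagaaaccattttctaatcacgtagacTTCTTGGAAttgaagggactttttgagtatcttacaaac
Glycam1: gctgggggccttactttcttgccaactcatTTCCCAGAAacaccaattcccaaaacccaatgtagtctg

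Toward mWAT, mesothelial genes stood out. Of 14 measured markers 11 were higher in mWAT and none in sWAT, with a median difference of -4.30, against 4.82% of all genes higher in mWAT. The list mean was 5.86, 5.88 and 6.17 in sWAT and 9.93, 9.87 and 10.58 in mWAT. Upk3b, a uroplakin that marks mesothelium, gave 4.96, 4.84 and 4.88 in sWAT and 12.16, 12.08 and 12.64 in mWAT on its brightest probe set (-7.40 ± 0.40, adjusted p = 4.9e-08 in limma). Msln, mesothelin, gave 4.04, 3.98 and 4.55 against 10.26, 10.09 and 11.10. Wt1, a transcription factor of mesothelium and visceral fat progenitors, gave 3.69, 3.93 and 3.36 against 9.96, 9.98 and 10.62. These sWAT levels lie far under the array medians. The table carries no detection call, so at such levels the size of a fold is not exact. Cldn15, Prr15 and Rspo1 were not called (-1.28 ± 0.31, -1.09 ± 0.30 and, for Rspo1, an adjusted p of 0.1974 in limma).

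Genes of neuropeptides and synapses were higher in mWAT, while other nerve lists were mixed. Neuropeptides are cut from precursors in secretory granules and released by neurons and endocrine cells, and those of the gut wall and of autonomic and sensory fibres reach the mesentery. Many of their genes answer to cyclic AMP through the sequence TGACGTCA, the CRE, which reads the same on both strands. Windows of 250 upstream bases (RefSeq, GRCm38.p6) were found for 15 of the 19 neuropeptide and granule genes. The CRE stood in 5 of them, against 478 of 27025 genes with a window (1.77%), and all 5 were called higher in mWAT. They are shown with the CRE in capitals, and the share in a list of this size is a description. Of the 19 genes 17 were called toward mWAT, so a shared direction among these 5 adds little. With a window, 2 of 17 luminal epithelium genes, a list that went toward sWAT, also held the CRE. So did 2 of 17 synaptic and axonal genes and 1 of 13 transmitter genes. No gene with a window held it in the milk, mesothelial, smooth muscle or neuronal transcription factor lists. The 5 sequences are those of the neuropeptide and granule genes. They lie at chr13:99900758-99900825 (minus strand), chr2:132781540-132781607 (plus), chr13:75089749-75089816 (plus), chr1:79440057-79440124 (minus) and chr16:23890855-23890922 (minus).
Cartpt: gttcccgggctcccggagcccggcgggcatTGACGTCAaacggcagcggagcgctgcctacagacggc
Chgb: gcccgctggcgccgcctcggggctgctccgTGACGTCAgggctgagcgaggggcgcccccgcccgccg
Pcsk1: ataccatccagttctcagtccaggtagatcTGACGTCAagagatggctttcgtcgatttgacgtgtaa
Scg2: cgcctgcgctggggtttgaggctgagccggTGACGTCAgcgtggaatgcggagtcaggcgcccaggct
Sst: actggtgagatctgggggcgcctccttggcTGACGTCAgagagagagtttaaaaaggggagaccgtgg

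Of the 19 neuropeptide and granule genes 17 were higher in mWAT, with a median difference of -4.24. Scg2, secretogranin of the granule, gave 3.35, 3.39 and 3.70 in sWAT and 11.26, 10.95 and 12.09 in mWAT (-7.95 ± 0.58, adjusted p = 4.5e-07 in limma). Vip, the vasoactive intestinal peptide of enteric neurons, gave 2.71, 2.86 and 3.23 against 10.27, 10.27 and 11.03. Gal, galanin, gave 5.46, 5.28 and 5.42 against 12.11, 11.65 and 12.59. In each of these mWAT array C was the highest array and the depots did not overlap. Tac1, the precursor of substance P, differed by -5.75 ± 0.67, Calcb, a calcitonin gene-related peptide, by -6.28 ± 0.78, and Npy, neuropeptide Y of sympathetic fibres, by -3.51 ± 0.29. Among the genes with a CRE, Cartpt, the CART peptide precursor, differed by -5.20 ± 0.41, Chgb, chromogranin B, by -3.82 ± 0.50, Sst, somatostatin, by -2.03 ± 0.34 and Pcsk1, a prohormone convertase, by -1.91 ± 0.41. Pcsk1 alone of these 4 lost its call, with an adjusted p of 0.0210 to 0.0266 in limma, without mWAT array C or any 1 of the sWAT arrays. Scg3 (0.24 ± 0.40) and Penk (0.39 ± 0.29) were not called.

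The other neuronal lists also held calls toward mWAT, with exceptions. Of 22 synaptic and axonal genes 18 were higher in mWAT and 1, Dnm1, in sWAT, with a median of -2.54. Dnm1, a dynamin, had an adjusted p of 0.0176 to 0.0359 in limma when any array other than mWAT array C was left out. Snap25, a vesicle fusion protein, gave 2.87, 2.90 and 3.64 in sWAT against 11.84, 11.35 and 12.26 in mWAT, and Prph, the peripheral neuron filament peripherin, 5.54, 4.55 and 4.84 against 10.22, 9.63 and 10.85. Of 16 genes of transmitter synthesis and transport 9 were higher in mWAT (5 without mWAT array C or sWAT array B), led by Chrna3, the ganglionic nicotinic receptor subunit (-4.64 ± 0.31). Nos1, the neuronal nitric oxide synthase, differed by -1.91 ± 0.32. The noradrenaline genes were less clear: Th differed by -0.85 ± 0.30 and Dbh by -0.37 ± 0.14, and neither was called on its brightest probe set. Another probe set of Dbh was called higher in mWAT. Slc6a2, the noradrenaline transporter, was called (-2.08 ± 0.42, adjusted p = 0.0039) but had an adjusted p of 0.0109 to 0.0239 in limma without mWAT array B or C or sWAT array A or B. Of 11 neuronal transcription factors and RNA-binding proteins 5 were higher in mWAT, among them Isl1 (-4.25 ± 0.38) and Hand2 (-3.13 ± 0.34), while Gata3, which luminal mammary cells and T cells also use, was higher in sWAT by 3.53 ± 0.46.

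Glial genes were mixed, read against 3.05% of all genes higher in sWAT and 4.82% in mWAT. Of 13 members 4 were higher in mWAT, among them Fabp7 (-2.12 ± 0.35) and Cdh19 (-1.80 ± 0.31), and 2 in sWAT, Sox10 (2.43 ± 0.35) and Erbb3 (2.04 ± 0.18), which mammary epithelium can also express. Myelin genes did not differ by more than their error, with Mbp at 0.00 ± 0.30 and Cnp at -0.02 ± 0.25. Axon guidance genes were split, with 17 of 35 differences above 0 and 18 below and a median of -0.07. Of them 6 were higher in mWAT, including Epha7 (-3.38 ± 0.43) and Sema3a (-2.01 ± 0.26). Sema3e, also counted, had an adjusted p of 0.0113 in limma without sWAT array C.

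Smooth muscle genes were higher in mWAT in 10 of 12 members, with a median of -3.33. Actg2, the gamma actin of visceral smooth muscle, gave 8.24, 9.28 and 8.12 in sWAT and 14.04, 13.70 and 14.06 in mWAT (-5.39 ± 0.55, adjusted p = 1.2e-05 in limma). Synm, the filament protein synemin, gave 8.10, 9.41 and 8.41 against 12.82, 12.18 and 12.88, and Myocd, the coactivator that drives the smooth muscle program, differed by -4.90 ± 0.31. Acta2, the actin of vascular smooth muscle and pericytes, differed by -0.89 ± 0.19, with an adjusted p of 0.0110 to 0.0331 in limma when any array other than sWAT array B was left out. Kit and Ano1, which mark the interstitial cells of Cajal that pace the gut, were not called (0.49 ± 0.33 and 0.17 ± 0.19). Of the defining markers of intestinal epithelium, Vil1, the villin of the brush border, gave 5.20, 5.86 and 5.15 in sWAT and 5.07, 5.81 and 5.20 in mWAT, under the array medians throughout. Fabp2, the intestinal fatty acid binding protein, gave 3.69, 2.95 and 3.36 against 5.91, 7.71 and 3.42, with mWAT array B above its array median. Of 15 genes of that list 2 were higher in sWAT, Slc5a1 and Lgr5, and none in mWAT. Fabp2 (-2.35 ± 0.97) and Cdx2 (-0.36 ± 0.24) were not called. The list mean was 5.11 to 5.49 in sWAT and 4.50 to 5.63 in mWAT. The part of gut tissue in the nerve and muscle differences was not tested.

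**Figure D2:**
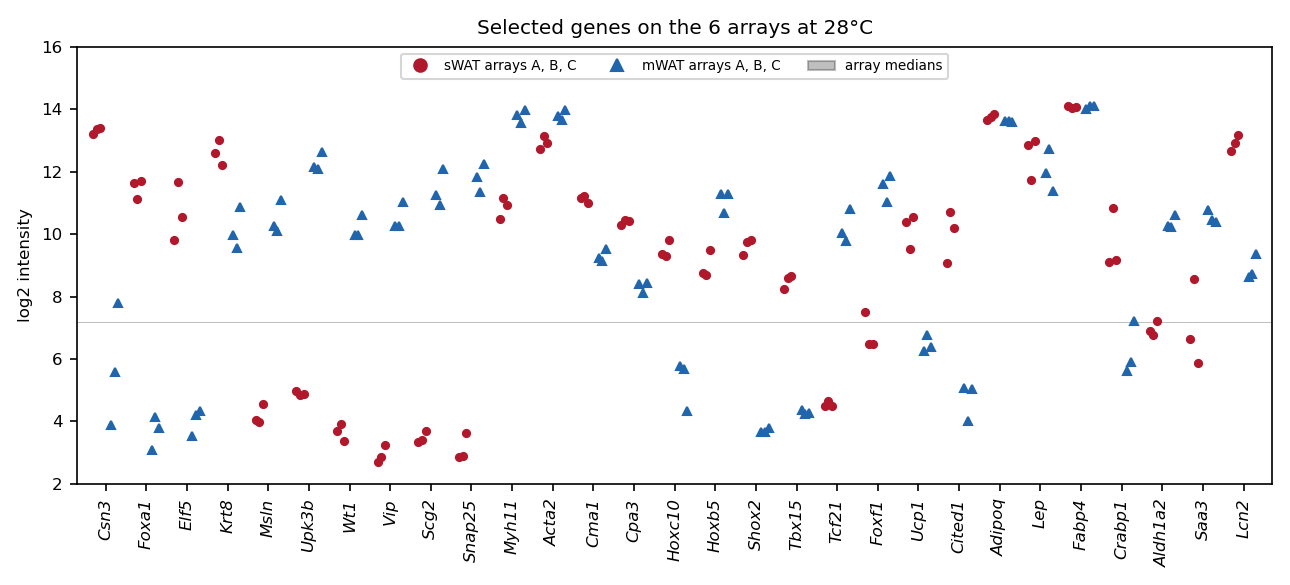
Log2 intensity of 29 genes on the 6 arrays at 28°C, 1 point for each array (red circles sWAT, blue triangles mWAT, arrays A, B and C from left to right), with the array medians as a grey line. Foxa1 lies above the line in sWAT alone, Krt8 in both depots, and Csn3 in sWAT and on mWAT array C. Mesothelial and neuronal genes such as Upk3b and Scg2 lie above it in mWAT alone, and Adipoq and Fabp4 near 14 in both.

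Positional transcription factors split between the depots. Of 33 measured Hox genes 3 were higher in sWAT and 4 in mWAT, with a median of -0.20. The shares over all genes were 3.05% and 4.82%. Hoxc10 gave 9.37, 9.31 and 9.80 in sWAT and 5.79, 5.67 and 4.33 in mWAT (4.23 ± 0.53, adjusted p = 8e-05 in limma), and Hoxa9 and Hoxc9 were higher in sWAT by 3.19 ± 0.51 and 1.98 ± 0.28. Hoxa10 differed by 3.31 ± 0.98 with no overlap but was not called (adjusted p = 0.0458): its mWAT arrays gave 7.71, 7.52 and 3.86. The genes higher in mWAT were Hoxb5 (8.75, 8.68 and 9.49 against 11.29, 10.67 and 11.28), Hoxb6, Hoxa5 and Hoxc4. Of these Hoxb6 and Hoxc4 had an adjusted p of 0.0101 to 0.0184 in limma without mWAT array C or sWAT array A or B. Sorted by paralogue number, with the border set after the values were seen, 14 of 15 genes numbered 1 to 6 had a difference below 0 and none was called toward sWAT, while of 18 genes numbered 7 to 13 10 lay below 0 and 8 above, with a median of -0.07. Those above 0 included 6 of the 7 numbered 9 or 10. The 4 genes called toward mWAT became 2 without mWAT array C or sWAT array A or B. In the Hoxd cluster no gene was called, and Hoxd9 and Hoxd10 differed by 0.24 ± 0.31 and -0.17 ± 0.53.

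**Figure D3:**
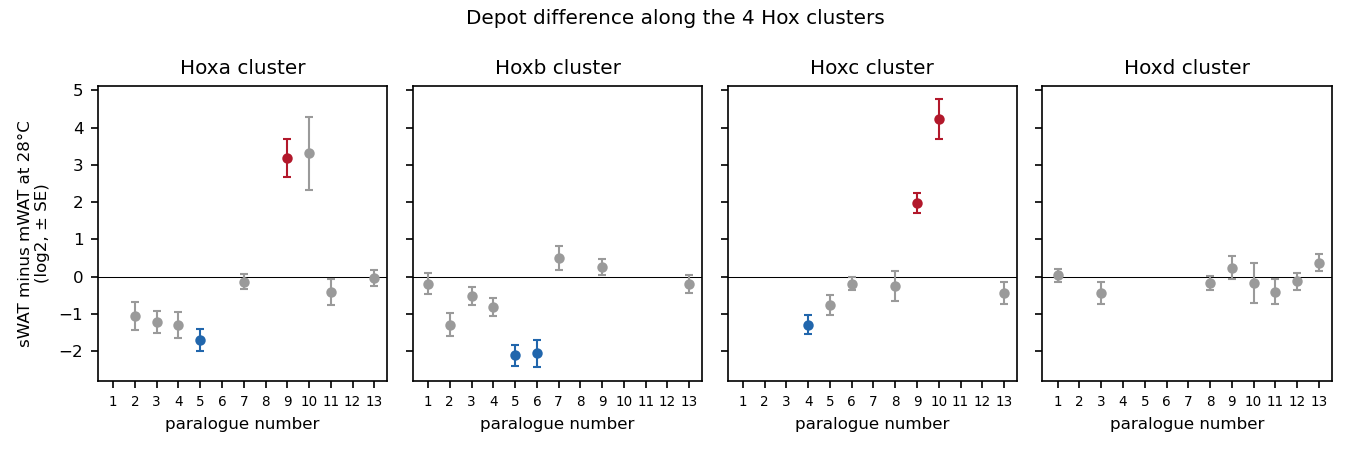
Difference of mean log2 intensity, sWAT minus mWAT at 28°C, with its SE, for 33 Hox genes by cluster and paralogue number. Red marks genes called higher in sWAT, blue genes called higher in mWAT and grey genes not called, so that Hoxa, Hoxb and Hoxc members up to number 6 lie at or below 0 and Hoxc10 reaches 4.23.

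Of 46 other positional factors 16 were higher in sWAT and 9 in mWAT. Shox2, a homeobox factor of limb and skeleton, gave 9.32, 9.76 and 9.83 in sWAT and 3.65, 3.65 and 3.79 in mWAT (5.94 ± 0.19, adjusted p = 1.6e-10 in limma). Tbx15, a T-box factor known in subcutaneous fat and dermis, was higher in sWAT by 4.20 ± 0.28. The limb and body wall factors En1, Tbx5, Twist1 and Prrx1 were higher in sWAT by 2.49 ± 0.37, 2.73 ± 0.28, 2.12 ± 0.27 and 1.72 ± 0.23. The Iroquois genes Irx1, Irx2, Irx3 and Irx5, which also serve epithelia, were higher in sWAT, Irx2 with 10.14, 10.68 and 10.43 against 4.75, 4.83 and 4.67. Toward mWAT stood Wt1 and Tcf21, a factor of visceral mesoderm, with 4.50, 4.66 and 4.50 in sWAT and 10.05, 9.77 and 10.80 in mWAT. Foxf1 and Foxf2, forkhead factors of the mesenchyme around the gut, differed by -4.68 ± 0.44 and -4.83 ± 0.44. Meis1, Meis2 and Pbx3, partners of Hox proteins, were higher in mWAT, Meis2 and Pbx3 with differences of -2.56 ± 0.21 and -2.33 ± 0.26.

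Lymphocyte genes did not separate the depots, and mWAT array C lay far under the other arrays. The mean of 15 T cell genes was 10.95, 9.86 and 9.32 in sWAT and 10.78, 10.89 and 6.16 in mWAT, and that of 15 B cell genes 10.57, 9.69 and 8.48 against 10.57, 10.88 and 6.78. At 6°C mWAT array C was also low, at 6.04 for T cell genes and 6.54 for B cell genes. The spread used by limma includes that array. No gene of either list was called by limma. In these lists 0 of 15 and 0 of 15 genes had an unadjusted p under 0.05. The median difference was 0.83 for T cell genes and 0.11 for B cell genes, and it was -0.78 and -1.27 when both arrays C of mWAT, the other at 6°C, were left out. Genes of lymph node stroma took the same low value on mWAT array C, with a list mean of 10.17, 10.46 and 7.45 in mWAT. Cxcl13, the chemokine of B cell follicles, gave 12.61, 11.78 and 11.08 in sWAT and 12.44, 12.69 and 11.14 in mWAT.

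Among myeloid genes those of mast cells were called most. Of 21 macrophage genes 2 were higher in sWAT, beside 3.05% of all genes: Clec10a (1.41 ± 0.24) and Cd14 (1.06 ± 0.18). The lineage markers Csf1r, Cd68 and Adgre1 differed by 0.06 ± 0.22, -0.08 ± 0.26 and -0.46 ± 0.25. The scavenger receptor Marco gave 8.74, 7.85 and 7.56 in sWAT and 11.88, 11.85 and 6.11 in mWAT, with mWAT array C apart, and was not called. Msr1, another scavenger receptor, was not called either (-1.16 ± 0.34). Of 12 genes of mast cells and granulocytes 6 were higher in sWAT. Of these 5 are mast cell genes, and the other one is Ltf, which milk also contains. Cma1, the chymase of connective tissue mast cells, gave 11.15, 11.23 and 11.01 in sWAT and 9.23, 9.14 and 9.54 in mWAT (1.83 ± 0.32, adjusted p = 0.0014 in limma). Cpa3, the mast cell carboxypeptidase, gave 10.29, 10.47 and 10.42 against 8.41, 8.11 and 8.43. Mcpt4, Tpsb2 and Ms4a2 were higher in sWAT by 2.07 ± 0.34, 1.89 ± 0.26 and 2.62 ± 0.28. The neutrophil genes S100a8, S100a9, Camp and Ngp were not called, with differences of -0.69 ± 0.86 to -2.15 ± 0.75. Among 38 interleukin genes 2 were called, both toward sWAT, beside 3.05% of all genes. Il1r2, the decoy receptor of interleukin-1, was higher in sWAT by 2.85 ± 0.42, and Il15ra by 0.68 ± 0.16 (adjusted p = 0.0098 in limma, but 0.0246 to 0.0575 when any array other than sWAT array A was left out). No complement gene of 12 was called in limma on its brightest probe set, and 3 had an unadjusted p under 0.05, all toward mWAT. Another probe set of Masp1 and another of C2, both complement genes, were called higher in mWAT.

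**Figure D4:**
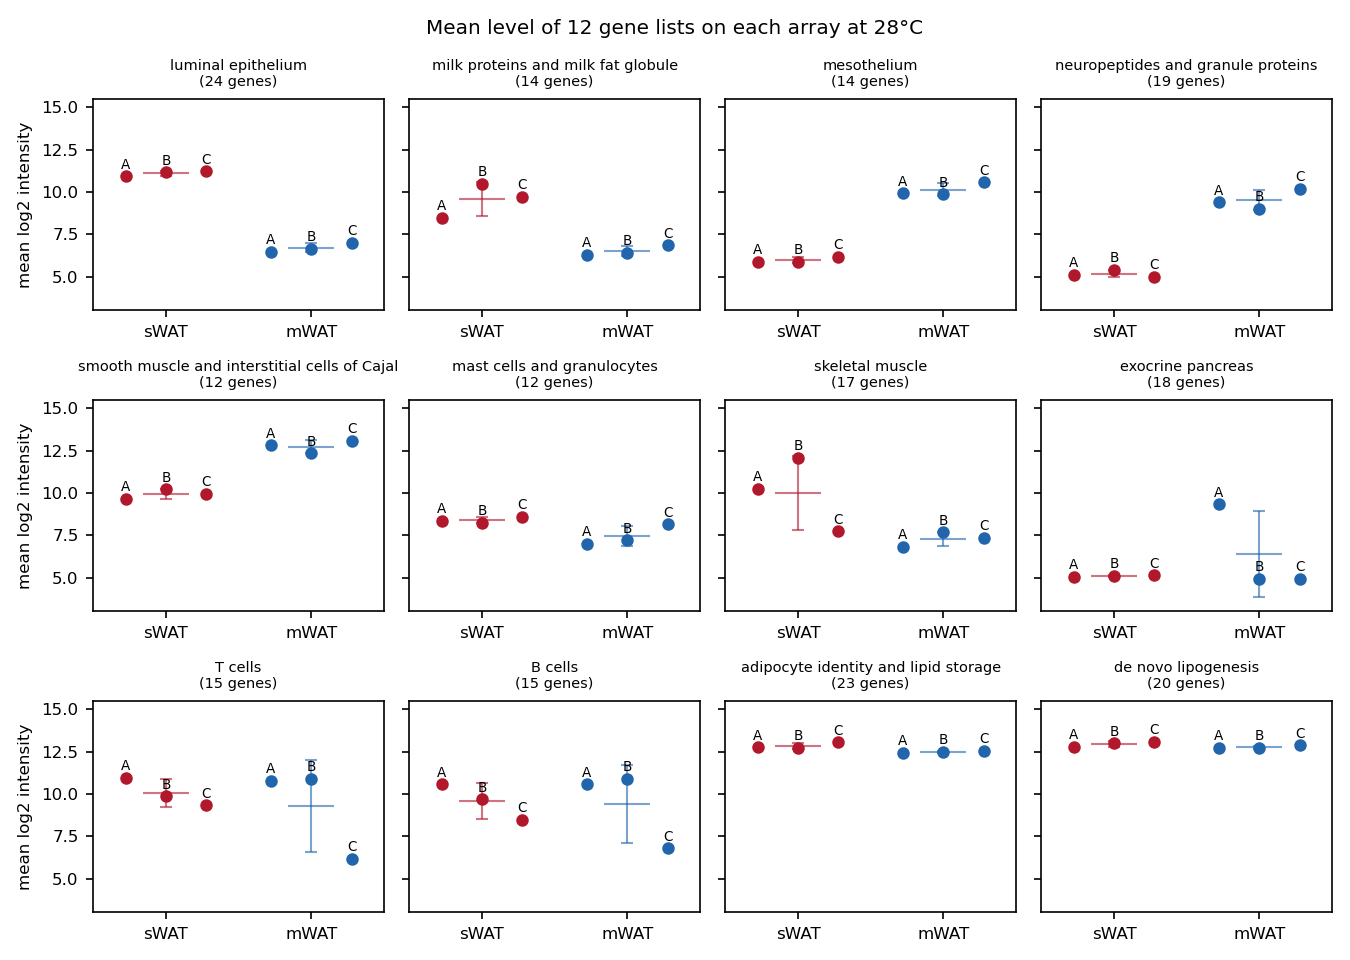
Mean log2 intensity of 12 gene lists on each of the 3 sWAT (red) and 3 mWAT (blue) arrays at 28°C, lettered by array, with the group mean and SD as bars. Luminal epithelium, mesothelium, neuropeptides and smooth muscle separate the depots, whereas mWAT array C lies at 6.16 for T cells and mWAT array A at 9.34 for exocrine pancreas.

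Genes of neighbouring organs were uneven among arrays of 1 depot. The 18 genes of exocrine pancreas averaged 9.34 on mWAT array A and 4.94 and 4.91 on arrays B and C, against 5.06 to 5.13 in sWAT. At 6°C mWAT array B averaged 14.01 and mWAT arrays A and C 5.42 and 5.20, and the spread used by limma includes these arrays. None of the 18 genes was called, none had an unadjusted p under 0.05, and the median of -1.33 was 0.14 without mWAT array A. The 17 skeletal muscle genes averaged 10.23, 12.07 and 7.74 in sWAT and 6.82, 7.67 and 7.35 in mWAT. None of these was called by limma, although 11 had an unadjusted p under 0.05, all toward sWAT, against 12.9% of all genes. Of the 17 genes 16 had a difference above 0, with a median of 3.02, and 3 were called with array weights, toward sWAT. The 6°C arrays were uneven too, with 11.28 on sWAT array B and 6.54 and 7.44 on sWAT arrays A and C. Myh4, a fast myosin, gave 10.83, 13.51 and 7.64 in sWAT.

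Adipocyte genes differed little in size between the pads at 28°C, and mostly toward sWAT. Of the 23 genes of adipocyte identity and lipid storage none was called by limma. Still, 13 had an unadjusted p under 0.05 toward sWAT, against 12.9% of all genes, and 21 had a difference above 0. The median difference was 0.28. With array weights 6 were called, with a variance trend 3, and without both arrays C of mWAT 2, each toward sWAT. Adipoq, adiponectin, differed by 0.13 ± 0.09 and Fabp4, the fatty acid binding protein of fat cells, by 0.00 ± 0.10. Pck1, which feeds glycerol synthesis, gave 12.57, 12.10 and 12.53 in sWAT and 11.09, 11.69 and 10.96 in mWAT (1.15 ± 0.27, adjusted p = 0.0108 in limma, and 0.0051 without mWAT array B). Lipe, hormone-sensitive lipase, differed by 0.70 ± 0.16 (adjusted p = 0.0102). The lists of de novo lipogenesis, cholesterol synthesis and the citrate cycle had medians of 0.14, 0.09 and 0.10, and no member of 20, 16 and 21 was called, with 2, 1 and 0 at an unadjusted p under 0.05.

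Of 26 adipokines and secreted regulators 1 was higher in sWAT and 2 in mWAT, beside 3.05% and 4.82% of all genes. Lcn2, lipocalin-2, which mammary epithelium also secretes, gave 12.66, 12.91 and 13.18 in sWAT and 8.63, 8.71 and 9.37 in mWAT (4.02 ± 0.38, adjusted p = 5.4e-06 in limma). Saa3, a serum amyloid A protein, gave 6.63, 8.57 and 5.86 against 10.76, 10.45 and 10.38 (-3.51 ± 0.74). Its adjusted p of 0.0056 became 0.0162 to 0.0354 when any array other than sWAT array B was left out. Rarres2, chemerin, differed by -0.72 ± 0.15, with an adjusted p of 0.0055 that became 0.0133 to 0.0332 without array B or C of either depot. Lep, leptin, differed by 0.51 ± 0.58, and Nrg4, neuregulin 4, by 0.63 ± 0.17 (adjusted p = 0.0331), and neither was called.

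Of 27 genes of brown fat thermogenesis 3 were higher in sWAT and 1 in mWAT, with a median of 0.38. Over all genes the shares were 3.05% and 4.82%. Ucp1, the uncoupling protein that makes heat, gave 10.39, 9.52 and 10.55 in sWAT and 6.27, 6.76 and 6.39 in mWAT (3.68 ± 0.29, adjusted p = 1.2e-06 in limma). Cidea, a lipid droplet protein, was higher by 1.46 ± 0.24. Cited1, a transcriptional cofactor that is also known in mammary epithelium, was higher by 5.28 ± 0.44. Acot11, an acyl-CoA thioesterase, was higher in mWAT, at 9.82, 9.75 and 10.10 in sWAT and 10.88, 10.53 and 11.35 in mWAT. Its adjusted p of 0.0030 became 0.0112 to 0.0171 without mWAT array A or C or sWAT array A or B. Prdm16 and Ppargc1a, regulators of the brown program, were not called (0.34 ± 0.23 and -1.21 ± 0.40).

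Other metabolic lists had called genes on both sides, read against 3.05% of all genes higher in sWAT and 4.82% in mWAT. Of 39 genes of amino acid metabolism 4 were higher in sWAT and 1 in mWAT (2 in sWAT without mWAT array A, and 0 in mWAT without mWAT array C or sWAT array B or C). Of 24 of glycolysis and glycogen 1 was higher in sWAT and 3 in mWAT (1 in mWAT when any array other than mWAT array B was left out). Arg1 and Arg2, the arginases, were higher in sWAT, with 8.84, 10.38 and 9.91 against 5.92, 5.85 and 5.79 for Arg1. Aldoc, an aldolase, was higher in sWAT by 2.40 ± 0.23, and Eno2, the neuronal enolase, in mWAT (-1.44 ± 0.23). Of 21 retinoid genes 4 were higher in sWAT (2 without sWAT array C) and 3 in mWAT (1 without array B or C of either depot). The binding proteins Crabp1 and Crabp2 were higher in sWAT by 3.46 ± 0.44 and 3.08 ± 0.41. The retinoic acid synthase Aldh1a2, also on the mesothelial list, was higher in mWAT, with 6.89, 6.78 and 7.23 against 10.27, 10.24 and 10.63. Aldh1a1, a related enzyme, differed by -1.74 ± 0.36 with an adjusted p of 0.0046 that reached 0.0243 in limma when sWAT array B was left out, and was not called without sWAT array C or any mWAT array either.

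Of 13 genes of steroid receptors and enzymes 5 were higher in sWAT and none in mWAT. Akr1c18, which inactivates progesterone, gave 11.36, 10.72 and 11.12 in sWAT and 4.42, 4.99 and 4.82 in mWAT (6.32 ± 0.43, adjusted p = 2.4e-07 in limma). Hsd11b1, which regenerates active glucocorticoid, was higher by 1.19 ± 0.18, and Akr1c14 by 1.85 ± 0.22. Pgr, higher by 2.53 ± 0.48, had an adjusted p of 0.0025, and of 0.0123 to 0.0168 without mWAT array A or B or sWAT array A or C. The receptors Esr1 (0.63 ± 0.22) and Nr3c1 (0.01 ± 0.10) were not called.

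Secreted signals divided between the depots. Of 24 Wnt ligands, receptors and antagonists 6 were higher in sWAT and 5 in mWAT, beside 3.05% and 4.82% of all genes. The 6 became 4 without any 1 of the mWAT arrays or without sWAT array B. Wnt2, 1 of the 6, had an adjusted p of 0.0143 to 0.0212 in limma whichever array was left out. The 5 became 3 without mWAT array C, where Wnt2b and Wnt9a had an adjusted p of 0.0106 and 0.0411 in limma. At 6°C 2 were higher in sWAT and 6 in mWAT. Rspo3, an R-spondin that amplifies Wnt signals, gave 4.92, 4.08 and 4.74 in sWAT and 9.48, 8.76 and 10.37 in mWAT, whereas Lgr6, a receptor of R-spondins, gave 9.10, 10.38 and 9.46 against 5.12, 6.08 and 5.41. Both differed with adjusted p of 8.9e-07 and 1.9e-06 in limma. The antagonists Dkk2 and Dkk3 were higher in mWAT (-2.34 ± 0.37 and -2.43 ± 0.29), and Wnt10a and Wnt5b in sWAT by 1.94 ± 0.27 and 1.79 ± 0.26. Of 22 genes of the BMP and activin family 5 were higher in mWAT and 1 in sWAT. Grem1, a BMP antagonist, gave 6.38, 5.79 and 5.42 in sWAT and 11.67, 11.22 and 12.36 in mWAT (-5.89 ± 0.42), and Bmp4, a ligand it binds, differed by -2.61 ± 0.33. Inhbb, an activin subunit, was higher in sWAT by 3.19 ± 0.40. The other subunit, Inhba, was higher in mWAT (-1.65 ± 0.36), with an adjusted p of 0.0142 to 0.0404 when any array other than mWAT array A was left out.

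Stromal and vascular lists had 1 or 2 calls each, read against 3.05% of all genes higher in sWAT and 4.82% in mWAT. Of 26 genes of fibroblasts and matrix 1 was called, Pi16, a marker of adventitial fibroblasts, higher in sWAT by 1.81 ± 0.31, while Pdgfra and Dcn differed by 0.40 ± 0.23 and -0.31 ± 0.15. Of 16 endothelial genes 1 was called, Gpihbp1, which holds lipoprotein lipase on capillaries, higher in sWAT by 1.43 ± 0.21. Of the 16, 14 had a difference above 0 and 10 an unadjusted p under 0.05 toward sWAT, against 12.9% of all genes, with a median of 0.47. Of 7 lymphatic genes 2 were higher in mWAT, Mmrn1 (7.85, 6.94 and 6.92 against 9.57, 9.57 and 9.98) and Flt4 (-0.95 ± 0.17, adjusted p = 0.0014 in limma, not called without mWAT array A). Prox1, the master factor of lymphatic endothelium, differed by -1.68 ± 0.46 (adjusted p = 0.0296). Of 21 genes of DNA replication and cell cycle none was called by limma and none had an unadjusted p under 0.05. Their mean was 9.03, 9.97 and 7.86 in sWAT and 9.06, 9.36 and 7.46 in mWAT, lowest on array C of each depot.

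The depot difference was then read on the 6 arrays of mice kept at 6°C, which share no array with those at 28°C. There 1687 probe sets (3.75%) were higher in sWAT and 1668 (3.7%) in mWAT, together 7.45% of all. With 1 probe set a gene 10.2% of genes were called, 5.17% higher in sWAT and 5.01% in mWAT. Of the 2631 probe sets called at 28°C, 2618 (99.5%) had the same sign at 6°C, against 67.4% of those not called. Called the same way at both temperatures were 1904, which is 72.4% of the calls at 28°C and 56.8% of those at 6°C. The median size of the difference was 1.82 at 28°C and 1.61 at 6°C for these 2631 probe sets. Foxa1 differed by 7.82 and 7.96, Vip by -7.59 and -7.68, Shox2 by 5.94 and 6.61 and Tcf21 by -5.65 and -5.25 at 28 and 6°C. Csn1s2b, a casein called at 28°C (2.33 ± 0.29), was not called at 6°C (0.35). Lcn2 was called at both, by 4.02 and 1.99. The change of the difference with temperature was tested as an interaction, and neither gene was called in it.

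In that test limma called 0 probe sets at an adjusted p under 0.01, with 5 under 0.05 and 2287 at an unadjusted p under 0.05. With array weights 11 were called, with a variance trend 5, without dim probe sets 3, and without both arrays C of mWAT 4, while leaving out 1 array of the 6 gave 0 to 2. The named genes among the 5 were Acot11, Cox7a1, Acaa2 and Slc27a2, which serve fatty acid use and respiration in brown adipocytes. Cox7a1, a subunit of cytochrome oxidase, differed between depots by 0.57 ± 0.25 at 28°C and 3.32 at 6°C. Slc27a2, a fatty acid transporter, differed by 1.17 ± 0.34 and 4.61. Of the 27 brown fat genes 18 were higher in sWAT at 6°C, with a median of 1.52, beside 3 at 28°C. Of 18 genes of fatty acid oxidation 13 and of 21 of the citrate cycle 11 were higher in sWAT at 6°C, beside 1 and 0 at 28°C. Over all lists 3 genes had an adjusted p under 0.05 in the interaction and none under 0.01.

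**Figure D5:**
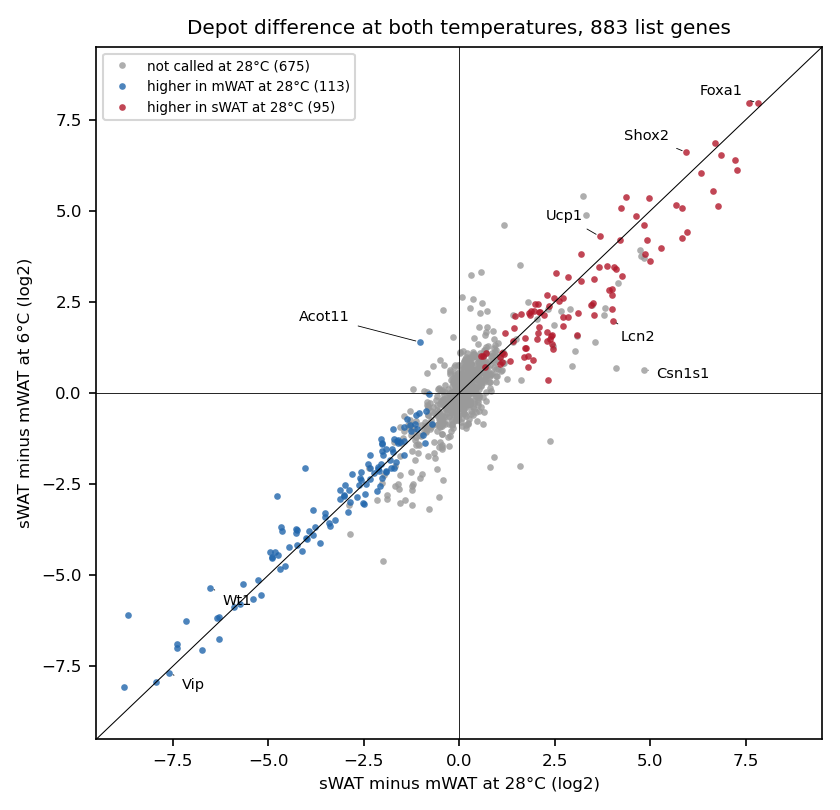
Difference of mean log2 intensity, sWAT minus mWAT, at 28°C (horizontal axis) and at 6°C (vertical axis) for 883 genes of the lists, with the diagonal of equal difference. Genes called at 28°C (95 red, 113 blue) lie mostly on the same side of 0 at both temperatures, some of them off the diagonal, such as Lcn2 at 4.02 and 1.99, while Acot11 was called in opposite directions, at -1.03 and 1.40.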

How the data were processed

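Deposited values were linear intensities, 1 for each of 45101 probe sets on each of 18 Affymetrix arrays, which the authors had corrected for background, summarized by probe set and normalized, using affy of Bioconductor. The algorithm is not given in the sources used here, and the array type is named in different ways. No raw probe values or detection calls were used, and how the normalization treats dim probe sets limits the folds there. Arrays were grouped by title.

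After 64 control probe sets had been left out, log2 intensities of 45037 were fitted with limma 3.58.1 (R 4.3.3) as 6 group means of 3 arrays each (12 residual and 2.64 prior degrees of freedom), because the groups then share an estimate of spread. The contrasts were sWAT minus mWAT at 28°C, at 6°C, and their difference. P-values were Benjamini-Hochberg adjusted over all probe sets, with the threshold of 0.01 used in the study's methods. A mean and SD rest on 3 arrays, and their number limits the precision. Of the tested probe sets 34945 name 1 gene, 932 several and 9160 none.

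Members and gene lists were chosen with earlier results of these data known. Named are the 12 largest differences each way among called genes, list members with the largest differences, defining markers and all Hox genes, and others, chosen after their values were seen, are named to spell out a list. A gene is read on its probe set of highest mean. Promoter windows came from RefSeq (GRCm38.p6). Alternatives were another threshold, a minimum fold of 2, the 6 arrays alone, array weights, quantile normalization, centring, a variance trend with robust estimates, dim probe sets left out, the mean of a gene's probe sets, and each of the 6 arrays left out in turn. Leaving out both mWAT arrays C was added after the data were seen. The scripts were tested on simulated data.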

Additional observations from a re-analysis of the deposited data

Results flagged for a closer look

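The depot difference of Acot11 changed its direction between the temperatures, but the interaction test did not call the change. The difference, sWAT minus mWAT, at 28°C minus that at 6°C was -2.43 (limma, adjusted p = 0.0179, which misses 0.01). At 28°C the depot means were 9.89 in sWAT and 10.92 in mWAT, and at 6°C they were 12.60 and 11.20. It was the one probe set called in opposite directions at the 2 temperatures. Its call at 28°C was lost without mWAT array A or C or sWAT array A or B (adjusted p of 0.0112 to 0.0171 in limma). The other probe set of the gene was not called at 28°C.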

How the results depend on the processing

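No paired analysis was possible because the labels do not say which arrays come from the same mouse. The 2631 calls at 28°C (966 toward sWAT, 1665 toward mWAT) became 4494 (1862 and 2632) at an adjusted p of 0.05, 4692 (2196 toward sWAT) with array weights, 1371 (535 and 836) without dim probe sets, 1540 (638 and 902) with the mean of a gene's probe sets, where 18193 genes were tested, and 931 (381 and 550) with the 6 arrays alone, where 4 residual degrees of freedom remain. Leaving out each array gave 1865 to 2454 in all, 625 to 880 toward sWAT and 1095 to 1729 toward mWAT. The 3355 calls at 6°C became 6146 at an adjusted p of 0.05, 5572 with array weights and 2049 with the mean of probe sets. The temperature interaction, with 0 calls, had 5 at an adjusted p of 0.05, 11 with array weights, 3 without dim probe sets, 5 with a variance trend, 4 without both mWAT arrays C, and 0 to 2 without 1 array. The 208 list members called became 119 without dim probe sets, 134 with the 6 arrays alone and 178 to 195 without 1 array. The cause of these shifts was not tested beyond the fewer probe sets or arrays some settings hold. Of 137 named calls the 6 arrays alone ended 43, leaving out both mWAT arrays C 8, leaving out 1 array 9 to 14, the mean of probe sets 6, quantile normalization and centring 2 each and a variance trend 1, and none changed direction in these. Of these calls 117 held in all 6 fits without 1 array. Levels under the array medians carry no detection call, so folds there are not exact.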
